A study of Canis lupus familiaris with 20 samples.

Results

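Heat shock proteins and molecular chaperones were followed in dog muscle through the genes whose symbol in the array files begins with HSP, DNAJ, BAG and a number, PDIA, FKBP, or CCT and a number or letter, together with CRYAB, CALR, CANX, TCP1, HSF1, HSF2, HYOU1, SERPINH1, STIP1 and UNC45B. The rule used names and no measured value. It found 71 of the 39917 gene, locus and transcript names on the array, with 92 of its 42034 probes, and 64 of these genes, with 80 probes, were among the 16008 probes bright enough to be tested.

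Total RNA of muscle was compared between 4 affected, 2 escaper and 4 normal dogs, all aged 2 years. Affected and escaper dogs are both labelled with DMD, Duchenne muscular dystrophy, in which muscle lacks the membrane-anchoring protein dystrophin, while the word escaper is used for dogs of that disease whose course stays mild. The labels give neither the muscle, the breed, the sex nor the mutation. Each dog was set against the RNA of 1 normal individual on 2 arrays of opposite dye, 20 arrays in all, so every value is a log2 ratio of dog over that reference, and a difference of 1 between dogs is 2-fold. Each of the 5 slides carried dogs of 1 group, and both escapers lay on 1 slide, so slide and escaper group cannot be told apart.

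Chaperones bind unfolded or stress-damaged proteins and help them fold, and many of their genes are driven by the transcription factor HSF1 when proteins unfold in the cytosol. HSP70 proteins are loaded with clients by J-domain partners of the HSP40 family and unloaded by BAG proteins, HSP90 and the barrel-shaped chaperonin CCT finish particular clients, and the endoplasmic reticulum has its own set for secreted and membrane proteins. In muscle the small heat shock proteins, among them CRYAB, HSPB1, HSPB7 and HSPB8, hold on to filament proteins of the contracting sarcomere under strain, and BAG3 with HSPB8 clears damaged filamin.

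The probes below are shown because the members that stood furthest apart between groups or between single dogs were read through them, or, for PDIA6, FKBP2 and DNAJC3, because a less bright probe of the gene can be set against the one the values come from. They are the 60-base designs of the array files, 5′ to 3′, with no base marked.
PDIA6, less bright probe: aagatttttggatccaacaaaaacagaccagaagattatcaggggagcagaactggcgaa
FKBP2, less bright probe: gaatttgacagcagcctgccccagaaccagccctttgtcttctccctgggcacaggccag
DNAJC3, less bright probe: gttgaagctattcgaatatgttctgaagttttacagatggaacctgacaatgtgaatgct
DNAJC19: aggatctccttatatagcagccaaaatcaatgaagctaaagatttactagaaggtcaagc
CRYAB: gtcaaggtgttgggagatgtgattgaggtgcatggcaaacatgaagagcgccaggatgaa
HSPB3: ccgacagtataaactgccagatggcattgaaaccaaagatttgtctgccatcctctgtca
HSP70: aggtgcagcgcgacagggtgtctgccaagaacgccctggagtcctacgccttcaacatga
DNAJB1: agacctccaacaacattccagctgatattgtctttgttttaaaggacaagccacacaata
FKBP15: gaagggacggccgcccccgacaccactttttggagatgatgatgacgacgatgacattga
The array files place the DNAJC19 probe at chr34:17207606-17207665 on the minus strand, the FKBP15 probe at chr11:70563730-70563789 on the minus strand and the HSPB3 probe at chr4:64187937-64187996 on the minus strand, in a build that the sources used here do not name. The 60 bases for CRYAB span 1327 bases at chr5:24192633-24193959 on the plus strand, and those for PDIA6 span 1512 bases at chr17:10635720-10637231 on the minus strand, so both probes join separate stretches of the genome. The HSP70 probe, at chr12:4289694-4289753 on the plus strand, belongs to an inducible HSP70 gene with near-identical copies, so its signal may come from more than 1 gene. The tested probes of the members had a median GC content of 45.0%, the same as the 45.0% of all probes.

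The 7 members not tested were too dim. HSPA4L, DNAJC16, DNAJC27, DNAJB7, FKBP1A, FKBP9 and the stress-induced reticulum chaperone HYOU1 were well above background on 0 to 8 of 20 arrays at their brightest probe. STIP1 and HSF2, which the rule names, were the symbol of no probe. Several central chaperones, among them HSPA5, HSPA8, HSP90AA1, HSP90AB1 and HSPD1, carry only locus or transcript names in the files, so they are no members and are given separately further on.

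On the arrays 30.5% to 60.2% of probes were well above background. Of 13 listed markers of adult muscle fibres, 8 were on the array and 7 passed the filter on dim probes. These 7, myoglobin (MB), MYH7 and TTN among them, were well above background on 19 or 20 arrays each. The filter asks for this in 2 dogs only, so these markers of the labelled tissue were present beyond what it requires. The median log2 ratio of these markers was −1.49 in affected 1 and 0.16 to 0.70 in affected 2 to 4, 0.58 in escaper 1 and −1.93 in escaper 2, and 0.39 to 0.79 in the normal dogs. Affected 1 and escaper 2 also stood apart over all tested probes, where affected 1 correlated with the other dogs at r from −0.19 to −0.01 and the 2 escapers with each other at −0.01, while normal dogs correlated at 0.78 to 0.86. Results below are therefore also given without these 2 dogs, an alternative chosen after seeing the data, in which the spread of the other groups has to stand for that of escaper 1, the only dog left in its group. In whole muscle, fewer cells of a type and less RNA per cell cannot be told apart.

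No member passed in any of the 3 comparisons at an adjusted p under 0.05 (limma, Benjamini-Hochberg over all 16008 probes). In affected against normal dogs 0 of 64 members passed, where 0.0187% of probes did, and 10 members (15.6%) had an unadjusted p under 0.05, where 12.4% of probes did. Of these 6 were higher in affected dogs, where 5.06% of probes were, and 4 lower, where 7.38% were. The difference was above 0 in 38 of 64 members (59.4%), where it was in 53% of probes. All 4 affected dogs lay above or below all 4 normal dogs in 7 members (10.9%), where 12.7% of probes were so separated. These were 4 members above, where 5.28% of probes were, and 3 below, where 7.42% were. The share among members was thus near that of all probes, and the median difference of the members was 0.09, against 0.02 over all probes.

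In escaper against normal dogs 0 of 64 members passed, where 0% of probes did, and 9 members (14.1%) had an unadjusted p under 0.05, where 18.4% of probes did. Of these 2 were higher in escapers, where 9.67% of probes were, and 7 lower, where 8.78% were. The difference was above 0 in 28 members (43.8%), where it was in 49.8% of probes. Both escapers lay outside the normal dogs in 21 members (32.8%), 8 above and 13 below, where 30.2% of probes were so placed, 14.5% above and 15.7% below. The median difference of the members was −0.15, against −0.001 over all probes. In escaper against affected dogs 0 of 64 members passed, where 0% of probes did, and 3 members, HSPB7, BAG2 and DNAJA3, had an unadjusted p under 0.05, which is 4.69% against 5.22% of probes. All 3 were lower in escapers, where 2.26% of probes were, and 0 were higher, where 2.95% were. Both escapers lay below all affected dogs in 3 members (4.69%) and above them in 0, where 7.84% of probes were separated, 4.15% below and 3.69% above. The difference was above 0 in 20 members (31.2%), where it was in 49% of probes. The median here was −0.22, against −0.008 over all probes. The 3 comparisons share dogs, so their members are given side by side and not counted against each other.

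Dogs of 1 group often differed widely in the members. The highest and lowest affected dog differed by more than 1 on the log2 scale in 35 of 64 members (54.7%), where 27.4% of probes did. The 2 escapers differed by that much in 23 members (35.9%), where 22.1% of probes did, and the normal dogs in 11 (17.2%), where 4.79% did. No test was made of these shares, and members, bright as a rule, were not matched to probes of like brightness. Affected 1 was the highest of all 10 dogs in 29 members and the lowest in 8, and escaper 2 was the highest in 9 and the lowest in 21. Over all probes affected 1 was highest in 24.9% and lowest in 20.9%, and escaper 2 was highest in 25.9% and lowest in 23.3%.

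**Figure D1:**
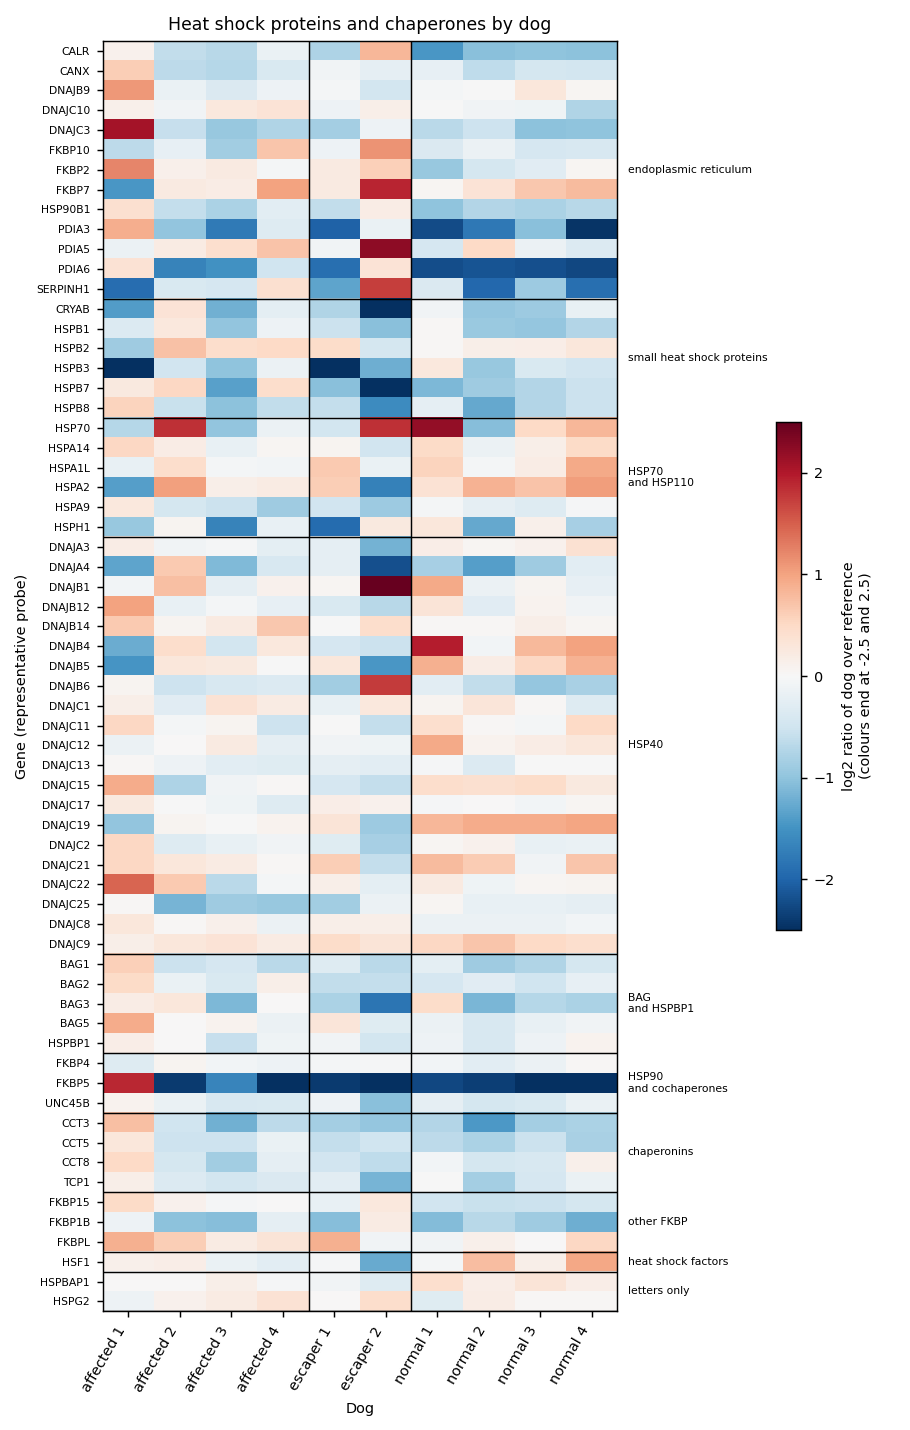
Log2 ratio of dog over reference for the 64 tested members (rows, grouped by role) in each of the 10 dogs (columns); red is above and blue below the reference, and colours end at −2.5 and 2.5. Affected 1 and escaper 2 differ in colour from the other dogs of their groups in many rows, as in FKBP5, DNAJC3, HSPB7 and DNAJB1.

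The 13 tested chaperones and folding enzymes of the endoplasmic reticulum were, for the most part, higher in both dystrophic groups than in normal dogs, though none passed the test. In affected against normal dogs 12 of 13 differences were positive, with a median of 0.49 and a range from −0.47 to 1.38, where 53% of all probes were positive. In escaper against normal dogs 12 of 13 were positive as well, with a median of 0.80, where 49.8% of probes were. Without affected 1 and escaper 2 the medians were 0.41, with 11 of 13 positive, and 0.11, with 8 of 13 positive. The median ratio of the 13 genes was 0.37, −0.38, −0.69 and −0.13 in affected dogs 1 to 4, −0.13 and 0.34 in escapers 1 and 2, and −0.42, −0.52, −0.44 and −0.69 in normal dogs 1 to 4. Affected 1 and escaper 2 were thus the highest dogs, and affected 3 lay among the normal dogs.

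PDIA6, a disulfide isomerase that also restrains stress signalling from the reticulum, had log2 ratios of 0.37, −1.68, −1.5 and −0.5 in affected dogs 1 to 4, −1.89 and 0.34 in escapers 1 and 2, and −2.21, −2.16, −2.20 and −2.27 in normal dogs 1 to 4. The normal dogs lay within 0.11 of one another and below every dystrophic dog. The means were −0.83 ± 0.95 in affected dogs and −2.21 ± 0.04 in normal dogs (SD, n = 4 each), a difference of 1.38 (SE 0.53, limma adjusted p = 0.35). The difference of escapers and normal dogs was 1.44 (SE 0.65, limma adjusted p = 0.272). Without affected 1 and escaper 2 these were 0.98 and 0.33. The less bright probe of PDIA6, shown above, read 0.54, −1.17, −1.44 and −0.63 in the affected dogs, −1.0 and −0.38 in the escapers and −1.0, −1.25, −1.06 and −1.08 in the normal dogs. At that probe affected and normal dogs overlapped, and the differences were 0.42 for affected and 0.40 for escaper against normal dogs, so the sizes depend on the probe.

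CALR, the calcium-binding chaperone calreticulin, which holds sugar-bearing proteins until they are folded, had ratios of 0.11, −0.61, −0.69 and −0.17 in affected dogs 1 to 4, −0.77 and 0.82 in escapers 1 and 2, and −1.46, −1.04, −1.0 and −1.02 in normal dogs 1 to 4. Every dystrophic dog lay above every normal dog, escaper 2 highest. Affected differed from normal dogs by 0.79 (SE 0.32, limma adjusted p = 0.374) and escapers by 1.16 (SE 0.40, limma adjusted p = 0.208), and without the 2 dogs that stand apart by 0.64 and 0.36. CANX, the membrane-bound relative calnexin, read 0.61, −0.65, −0.71 and −0.38 in the affected dogs, −0.09 and −0.22 in the escapers and −0.21, −0.64, −0.44 and −0.46 in the normal dogs. The groups overlapped for CANX, with affected 1 the highest dog.

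FKBP2, a prolyl isomerase of the reticulum, read 1.22, 0.13, 0.23 and −0.06 in the affected dogs, 0.22 and 0.60 in the escapers and −0.94, −0.44, −0.28 and 0.04 in the normal dogs. Only the lowest affected dog, affected 4, fell inside the normal range, below normal 4. The differences were 0.79 (SE 0.30, limma adjusted p = 0.351) for affected and 0.82 (SE 0.37, limma adjusted p = 0.273) for escaper dogs against normal. Its less bright probe gave 0.43 and 0.37. PDIA3, the disulfide isomerase that works with calreticulin and calnexin, read 0.90, −0.98, −1.76 and −0.32 in the affected dogs, −2.01 and −0.16 in the escapers and −2.25, −1.79, −1.04 and −2.45 in the normal dogs, with affected and normal dogs overlapping. Its difference between affected and normal dogs was 1.34 (SE 0.60, limma adjusted p = 0.401) at this probe and 0.32 at its less bright probe. The dye-swapped arrays of escaper 2 read −1.10 in Cy5 and 0.78 in Cy3 for PDIA3, and those of affected 2 read −1.82 and −0.14.

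DNAJC10, a J-domain protein that reduces wrong disulfide bonds, read 0.13, −0.09, 0.27 and 0.34 in the affected dogs, −0.13 and 0.15 in the escapers and −0.01, −0.09, −0.10 and −0.75 in the normal dogs. Normal 4 was far below the other normal dogs, and affected and normal dogs overlapped by a margin under 0.1, with a difference of 0.40 (SE 0.19, limma adjusted p = 0.424). HSP90B1, the HSP90 of the reticulum, read 0.40, −0.59, −0.80 and −0.27 in the affected dogs, −0.61 and 0.19 in the escapers and −1.01, −0.72, −0.80 and −0.69 in the normal dogs. Both escapers lay above all normal dogs, and affected 3 lay among them. DNAJC3, an inhibitor of the stress kinase PERK, was chosen after its values were seen and read 2.09, −0.58, −0.95 and −0.75 in the affected dogs, −0.85 and −0.12 in the escapers and −0.67, −0.52, −1.02 and −1.01 in the normal dogs. Affected 1 stood more than 2 above every other dog, and its less bright probe read 1.94 in that dog against −0.83 to 0.15 in the other 9. DNAJB9, another stress-induced partner chosen in the same way, read 1.08 in affected 1 and −0.45 to 0.28 in the other 9 dogs.

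Of the reticulum genes, SERPINH1, FKBP7, FKBP10 and PDIA5 were, like CALR, highest in escaper 2, and they are set together after their values were seen. SERPINH1, the collagen chaperone HSP47, read −1.91, −0.38, −0.41 and 0.40 in the affected dogs, −1.32 and 1.72 in the escapers and −0.35, −1.96, −0.90 and −1.88 in the normal dogs. The groups overlapped, and in each of the 8 affected and normal dogs its value rests on 1 array, since the spot on the other had an outlier flag. Its less bright probe spanned only −0.20 to 0.40 over the 10 dogs. FKBP7, a prolyl isomerase of the reticulum, read −1.45, 0.23, 0.19 and 1.01 in the affected dogs, 0.22 and 1.91 in the escapers and 0.05, 0.35, 0.67 and 0.79 in the normal dogs, with the groups overlapping, and the escapers differed from affected dogs by 1.07 (SE 0.63, limma adjusted p = 0.8), or by −0.25 without affected 1 and escaper 2. FKBP10, a collagen-binding isomerase, read −0.66, −0.21, −0.88 and 0.70 in the affected dogs, −0.12 and 1.12 in the escapers and −0.37, −0.14, −0.41 and −0.40 in the normal dogs, but it was well above background on 5 of 20 arrays only, and its difference of 0.76 (SE 0.44, limma adjusted p = 0.8) came to 0.01 without those dogs. PDIA5, a disulfide isomerase, read −0.15, 0.20, 0.42 and 0.72 in the affected dogs, −0.09 and 2.24 in the escapers and −0.42, 0.51, −0.15 and −0.34 in the normal dogs. Escaper 1 lay inside the normal range, and the difference of 1.18 (SE 0.55, limma adjusted p = 0.283) between escaper and normal dogs was 0.01 without escaper 2. The 11 tested fibroblast and matrix markers had a median ratio of 1.55 in escaper 2 and −0.19 in escaper 1, against −1.23 to 0.87 in affected and −0.96 to −0.27 in normal dogs, and the 7 tested macrophage markers 1.36 in escaper 2 and −1.25 in escaper 1, against −1.15 to −0.08 in affected and −2.05 to −1.46 in normal dogs. Of those markers 0 of 11 and 0 of 7 passed in any comparison by limma. In escaper against normal dogs 7 and 5 had an unadjusted p under 0.05, all higher, where 9.67% of all probes were. Some matrix markers were dim, since COL1A1 and POSTN were well above background on 4 of 20 arrays and PDGFRA on 6. THY1 went the other way, with a difference of −0.19 between escaper and normal dogs. The part of these markers in the values of SERPINH1, FKBP7, FKBP10 and PDIA5 was not tested.

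**Figure D2:**
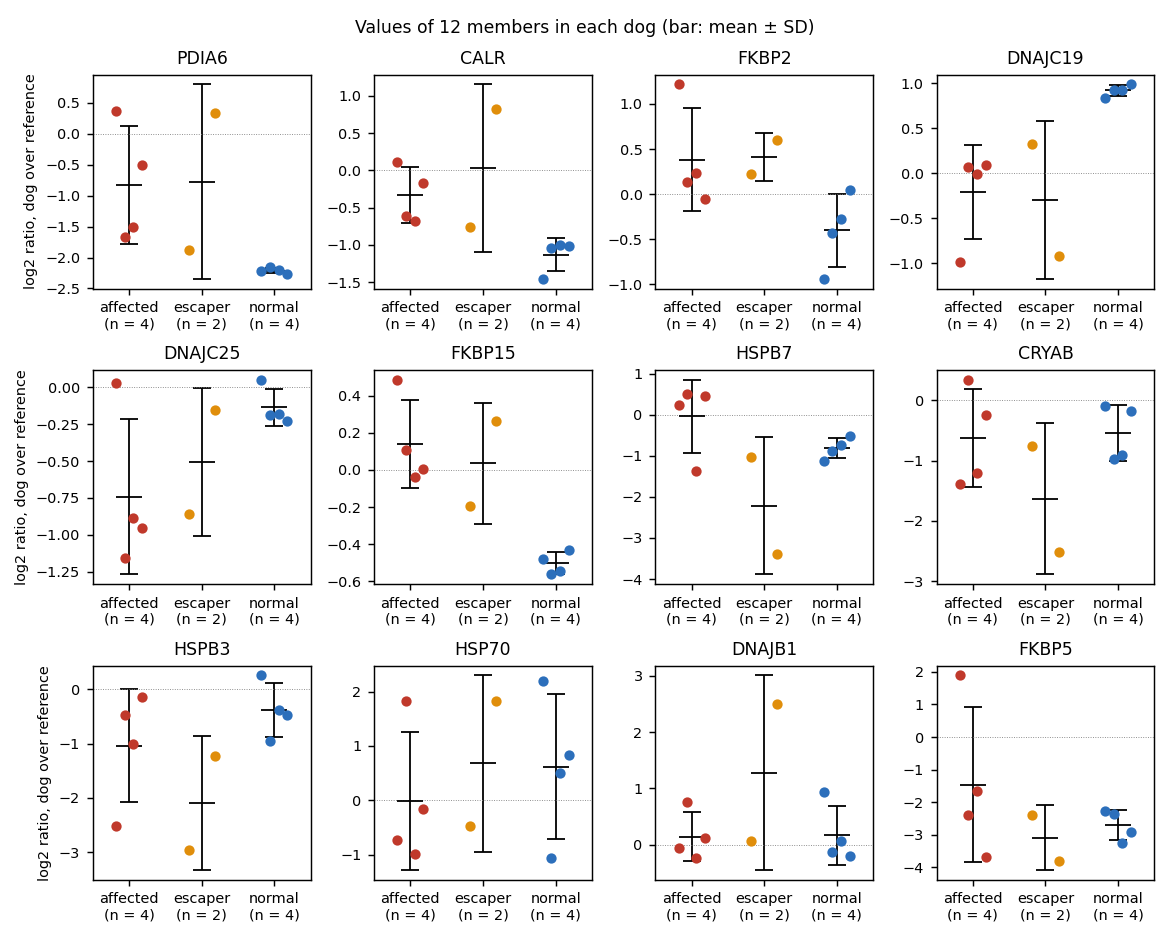
Log2 ratio of dog over reference (vertical axis, its own scale in each panel) for 12 members in affected, escaper and normal dogs; each point is a dog and the bars give the mean ± SD. Normal dogs sit together below the others for PDIA6, CALR and FKBP15 and above them for DNAJC19, while HSP70 is scattered in all groups.

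The 6 small heat shock proteins were lower on average in escapers than in both other groups. All 6 differences were negative in escaper against normal dogs (median −0.74, range −1.71 to −0.14) and in escaper against affected dogs (median −0.84, range −2.18 to −0.18). In affected against normal dogs 4 of 6 were positive, with a median of 0.16. The median ratio of the group was −0.62, 0.30, −1.01 and −0.14 in affected dogs, −0.67 and −1.39 in escapers, and −0.04, −0.93, −0.73 and −0.50 in normal dogs. Escaper 2 was the lowest dog and escaper 1 lay among the normal dogs, and without affected 1 and escaper 2 the median against normal dogs was −0.06, with 3 of 6 negative. Escaper 2 and affected 1 were also the dogs with the lowest fibre markers given above, and the part of fibre content in these values was not tested.

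HSPB7, a heart and muscle member that binds filamin, had ratios of 0.24, 0.52, −1.36 and 0.45 in affected dogs 1 to 4, −1.04 and −3.40 in escapers 1 and 2, and −1.12, −0.88, −0.73 and −0.53 in normal dogs 1 to 4. Escaper 2 was lower than any other dog by more than 2, and affected 3 lay below escaper 1, away from the other affected dogs. Escapers differed from affected dogs by −2.18 (SE 0.65, limma adjusted p = 0.8), 4.53-fold lower. That was the smallest unadjusted p among the members in this comparison. Without escaper 1 the difference was −3.36 and without escaper 2 it was −1.0, with a single escaper left in each fit. Its less bright probe read −1.42 in escaper 2 and gave a difference of −1.03.

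CRYAB, the αB-crystallin of the Z-disc, read −1.39, 0.34, −1.20 and −0.25 in the affected dogs, −0.75 and −2.52 in the escapers and −0.09, −0.97, −0.90 and −0.18 in the normal dogs. Escaper 2 was again the lowest dog, affected 1 the next, and the groups overlapped. The values of affected 1 and 3 rest on their Cy3 arrays alone, and 2 arrays were saturated at this probe. The difference of escaper and affected dogs was −1.01 (SE 0.58, limma adjusted p = 0.8), and −0.13 without escaper 2. HSPB2, whose gene lies beside CRYAB, was lowest in affected 1 at −0.89 and in escaper 2 at −0.43, against 0.02 to 0.73 in the other 8 dogs.

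HSPB3, a small member made mainly in muscle, read −2.51, −0.48, −1.0 and −0.15 in the affected dogs, −2.97 and −1.22 in the escapers and 0.26, −0.95, −0.37 and −0.48 in the normal dogs. Affected 1 and 3 and both escapers lay below every normal dog, and the difference of escapers and normal dogs was −1.71 (SE 0.67, limma adjusted p = 0.235). The low value of escaper 1 came from 1 of its arrays, which read −4.96 in Cy3 against −0.97 in Cy5, the largest gap between the dye-swapped arrays of any member and dog. With Cy5 arrays alone the difference was −0.63, and in the deposited value table it was −0.85. HSPB1, the widely expressed HSP27, read −0.35, 0.27, −0.98 and −0.13 in the affected dogs, −0.53 and −1.04 in the escapers and 0.03, −0.92, −0.97 and −0.72 in the normal dogs, but its probe was saturated in at least 1 channel on 19 of 20 arrays, which compresses its ratios, and the groups overlapped. HSPB8, the partner of BAG3, read 0.56, −0.56, −1.02 and −0.61 in the affected dogs, −0.59 and −1.56 in the escapers and −0.23, −1.27, −0.74 and −0.53 in the normal dogs. Escaper 2 was lowest and affected 1 highest, with the groups overlapping.

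The HSP70 and HSP110 genes were all lower on average in affected than in normal dogs, 6 of 6 with a median of −0.32, and none was separated. In escapers 5 of 6 were lower than in normal dogs, with a median of −0.43. Without affected 1 and escaper 2 the medians were −0.29 and −0.24. HSPA2, a form known from testis and also made in other tissues, read −1.38, 1.03, 0.15 and 0.20 in the affected dogs, 0.61 and −1.68 in the escapers and 0.35, 0.87, 0.71 and 1.05 in the normal dogs. Affected 1 and escaper 2 were below all other dogs by more than 1, and the rest overlapped. At the less bright probe of HSPA2 they were again lowest, at −0.66 and −0.94, but affected 4 lay near them at −0.39. There the differences of affected and escaper from normal dogs were −0.28 and −0.48, against −0.75 and −1.28 at the brightest probe.

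The probe named HSP70, an inducible member whose transcript is known to rise within minutes of stress, is given because of its spread and was chosen after its values were seen. It read −0.72, 1.83, −0.98 and −0.15 in affected dogs 1 to 4, −0.47 and 1.82 in escapers 1 and 2, and 2.19, −1.06, 0.5 and 0.83 in normal dogs 1 to 4. Dogs far apart occurred in every group, since affected 2, escaper 2 and normal 1 lay above 1.8 while affected 1, affected 3 and normal 2 lay at or below −0.72. HSPH1, the HSP110 that unloads HSP70, read −0.95, 0.06, −1.68 and −0.18 in the affected dogs, −1.92 and 0.25 in the escapers and 0.28, −1.28, 0.12 and −0.83 in the normal dogs, with a spread above 1.5 in each group. HSPA9, the mitochondrial HSP70 mortalin, read 0.27, −0.44, −0.54 and −0.88 in the affected dogs, −0.48 and −0.91 in the escapers and −0.05, −0.22, −0.32 and −0.02 in the normal dogs. The escapers were both below the normal dogs, but only 2 of 4 escaper arrays were well above background. HSPA14 and HSPA1L spanned −0.48 to 0.94 over all dogs, with the groups overlapping.

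**Figure D3:**
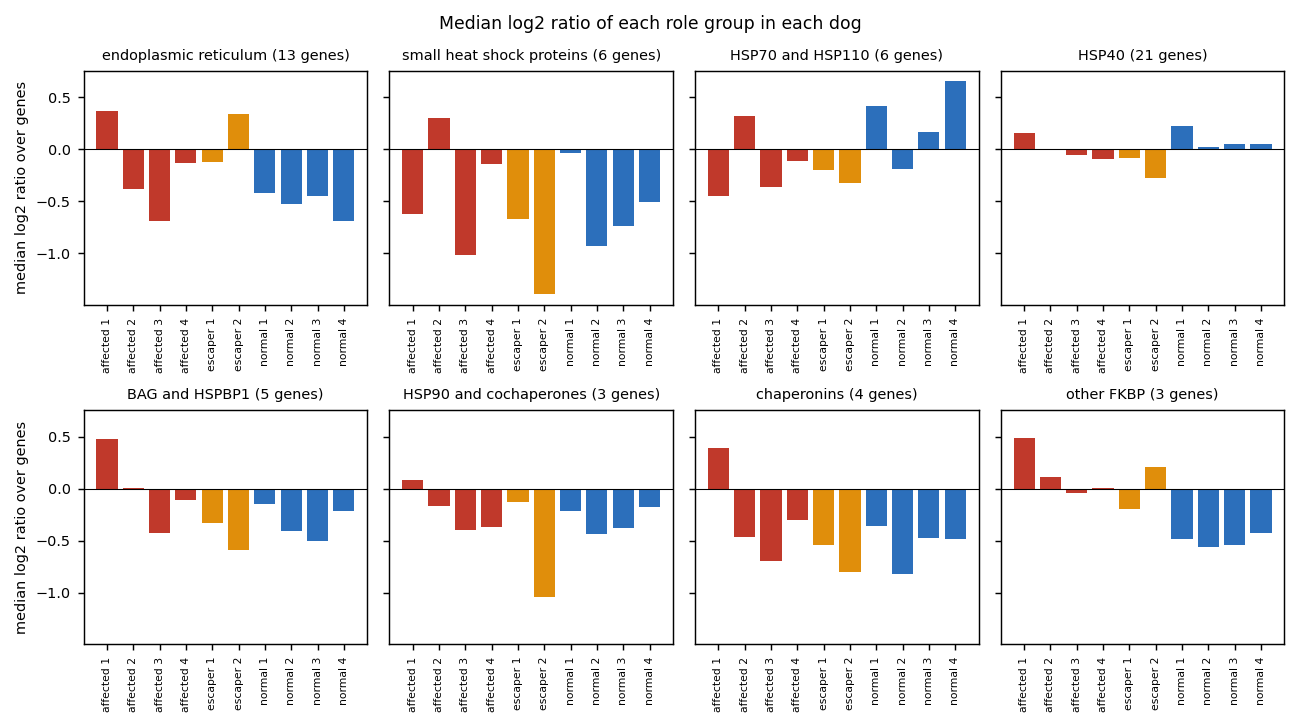
Median log2 ratio (vertical axis, 1 scale for all panels) over the tested genes of each role in each dog; bars start at 0 and their colours give the group. Affected 1 is above 0 for 6 of the 8 roles, and escaper 2 is the lowest dog for small heat shock proteins, HSP40, BAG and HSP90 cochaperones.

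The 21 tested J-domain proteins of the HSP40 family, which bring clients to HSP70 and start its ATP cycle, were lower on average in most cases in both dystrophic groups. In affected against normal dogs 13 of 21 were negative (median −0.07, range −1.18 to 0.36), 4 of them with an unadjusted p under 0.05, where 7.38% of all probes were lower at that p, and 2 without overlap, where 7.42% of probes were. In escaper against normal dogs 15 of 21 were negative (median −0.37, range −1.41 to 1.11), 7 of them with both escapers below all normal dogs and 2 members with both above, where 15.7% and 14.5% of probes were so placed. Without affected 1 and escaper 2 the medians were −0.16, with 15 negative, and −0.21, with 16 negative.

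DNAJC19, a J-domain protein of the inner mitochondrial membrane that assists protein import, had ratios of −0.98, 0.07, −0.01 and 0.09 in affected dogs 1 to 4, 0.32 and −0.92 in escapers 1 and 2, and 0.84, 0.92, 0.93 and 0.99 in normal dogs 1 to 4. The normal dogs lay within 0.15 of one another and above every dystrophic dog by at least 0.5. The means were −0.21 ± 0.52 in affected dogs and 0.92 ± 0.06 in normal dogs (SD, n = 4 each), a difference of −1.12 (SE 0.30, limma adjusted p = 0.244), or 2.18-fold lower. Escapers differed from normal dogs by −1.22 (SE 0.37, limma adjusted p = 0.197). Without affected 1, the lowest affected dog, and escaper 2, the lower escaper, the differences were −0.86 (limma adjusted p = 0.00557) and −0.60 (adjusted p = 0.247), so in this reduced set the fall in affected dogs passed the threshold. With all 20 arrays and the dog as a random block the limma adjusted p was 0.011 for affected and 0.0192 for escaper dogs. That fit took 1 correlation of 0.542 between the arrays of a dog for all probes. The arrays repeat the same RNA, and for DNAJC19 they read −1.034 and −0.934 in affected 1. Where a probe repeats more closely than that correlation, its p can come out too small. The fit called 362 and 1067 probes, where the fit of dog averages called 3 and 0, so it adds no separate support. The 3 tested markers of mitochondrial respiration were lower too, with a median ratio of −0.69 to 0.28 in affected dogs, 0.27 and −0.93 in escapers and 0.62 to 0.99 in normal dogs, and their relation to DNAJC19 was not tested. By limma 0 of 3 passed. Lower at an unadjusted p under 0.05 were 2 in affected and 3 in escaper against normal dogs, where 7.38% and 8.78% of all probes were.

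Other mitochondrial J-domain proteins were DNAJA3, a partner of mortalin, and DNAJC15, which resembles DNAJC19. DNAJA3 read 0.18, −0.09, −0.03 and −0.24 in the affected dogs, −0.22 and −1.17 in the escapers and 0.17, 0.06, 0.11 and 0.39 in the normal dogs. Each escaper lay below the normal dogs, escaper 2 by more than 1.2, with a difference of −0.88 (SE 0.25, limma adjusted p = 0.189), the smallest adjusted p of any member in this comparison. Its less bright tested probes gave −0.691, with both escapers below the normal dogs, and −0.403, with the groups overlapping. With the slide as a random block the brightest probe passed, at a limma adjusted p of 0.0471. Each slide held 1 group and the fitted correlation within a slide was −0.271, which makes the error of group differences smaller. That fit called 522 probes where 0 were called without the block, so the pass adds no separate support. Without escaper 1 the difference was −1.35, and without escaper 2 it was −0.40, with a single escaper left in each fit. DNAJC15 read 0.93, −0.76, −0.09 and 0.03 in the affected dogs, −0.43 and −0.59 in the escapers and 0.45, 0.41, 0.45 and 0.25 in the normal dogs, so that both escapers, but not all affected dogs, lay below the normal dogs, with a difference of −0.90 (SE 0.36, limma adjusted p = 0.244). DNAJC11, of the inner membrane's cristae complex, spanned −0.59 to 0.52 with the groups overlapping.

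DNAJB4, a cytosolic partner of HSP70 found in muscle, read −1.25, 0.44, −0.47 and 0.27 in the affected dogs, −0.41 and −0.54 in the escapers and 1.97, −0.07, 0.80 and 1.01 in the normal dogs. Normal 1 was far above all other dogs, and normal 2 lay inside the affected range. The differences were −1.18 (SE 0.46, limma adjusted p = 0.358) for affected and −1.41 (SE 0.56, limma adjusted p = 0.241) for escaper dogs against normal, and the first was −0.83 without normal 1. DNAJC25 read 0.03, −1.16, −0.89 and −0.95 in the affected dogs, −0.86 and −0.15 in the escapers and 0.05, −0.19, −0.18 and −0.23 in the normal dogs. Affected 2, 3 and 4 lay near −1 and below the normal dogs, while affected 1 lay with them. The difference was −0.60 (SE 0.26, limma adjusted p = 0.391), and −0.86 without affected 1 and escaper 2, where it passed (limma adjusted p = 0.0107). DNAJC9, a histone-binding J-domain protein, read 0.15, 0.29, 0.35 and 0.20 in the affected dogs, 0.46 and 0.32 in the escapers and 0.53, 0.69, 0.5 and 0.42 in the normal dogs, so the affected dogs lay below the normal dogs by a narrow margin, with a difference of −0.29 (SE 0.12, limma adjusted p = 0.37). At its less bright probe affected and normal dogs overlapped, with a difference of −0.12.

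DNAJC12 was not well above background on any affected or escaper array and was so on 6 of 8 normal arrays. The difference in log2 ratio was −0.42 (SE 0.20, limma adjusted p = 0.424) for affected against normal dogs and −0.47 (SE 0.24, limma adjusted p = 0.313) for escaper against normal dogs. Without normal 1 these differences were −0.23 and −0.28, and with a signal not well above background in the dystrophic dogs their size is uncertain. Its ratios were −0.14, 0.00, 0.22 and −0.23 in the affected dogs, −0.08 and −0.11 in the escapers and 0.95, 0.09, 0.18 and 0.29 in the normal dogs, where normal 2 rests on 1 array and normal 1 stands above the rest.

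DNAJB1, the main stress-induced partner of HSP70, read −0.07, 0.75, −0.23 and 0.12 in the affected dogs, 0.06 and 2.5 in the escapers and 0.94, −0.14, 0.07 and −0.20 in the normal dogs. Escaper 2 lay far above all other dogs, and escaper 1 lay among the affected and normal dogs. The difference of escaper and affected dogs was 1.14 (SE 0.59, limma adjusted p = 0.8), and it turned to −0.09 without escaper 2. DNAJB6, whose mutation in people causes a limb-girdle muscular dystrophy, read 0.07, −0.53, −0.41 and −0.33 in the affected dogs, −0.87 and 1.75 in the escapers and −0.26, −0.61, −0.97 and −0.81 in the normal dogs, with escaper 2 again alone at the top and escaper 1 within the normal range. The 7 tested immediate early genes, such as FOS and EGR1, had a median ratio of 2.33 in escaper 2 and −1.44 in escaper 1, against −1.12 to −0.04 in affected and −0.74 to 0.49 in normal dogs, and their part in DNAJB1 and DNAJB6 was not tested. By limma 0 of 7 passed in any comparison. In escaper against affected dogs 2 had an unadjusted p under 0.05, both higher, where 2.95% of all probes were. DNAJB12, a membrane-bound partner, read 1.0, −0.19, −0.06 and −0.20 in the affected dogs, −0.37 and −0.69 in the escapers and 0.33, −0.28, 0.09 and −0.08 in the normal dogs. The 2 escapers were the lowest dogs, with a difference from affected dogs of −0.67 (SE 0.34, limma adjusted p = 0.8). DNAJC2, a ribosome-bound J-domain protein, read 0.52, −0.32, −0.18 and −0.09 in the affected dogs, −0.31 and −0.83 in the escapers and 0.05, 0.10, −0.18 and −0.17 in the normal dogs, with normal 3 from 1 array, and differed between escaper and affected dogs by −0.55 (SE 0.25, limma adjusted p = 0.8). Without affected 1 and escaper 2 the 2 differences were −0.22 and −0.11.

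The remaining J-domain proteins, DNAJA4, DNAJB5, DNAJB14, DNAJC1, DNAJC8, DNAJC13, DNAJC17, DNAJC21 and DNAJC22, had adjusted p values above 0.2 in each comparison. DNAJA4 was lowest in escaper 2, at −2.20, and DNAJB5 in affected 1 and escaper 2, at −1.47 and −1.46.

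BAG proteins release clients from HSP70. All 5 genes of this group, with the exchange factor HSPBP1 counted in, were higher on average in affected than in normal dogs, with a median of 0.37, and all 5 were lower in escapers than in affected dogs, with a median of −0.24. Affected 1 was the highest affected dog in 4 of the 5, and without affected 1 and escaper 2 the medians were 0.19 and 0.13. BAG3, which with HSPB8 directs damaged filamin to autophagy, read 0.18, 0.28, −1.12 and 0.01 in the affected dogs, −0.79 and −1.82 in the escapers and 0.45, −1.13, −0.71 and −0.79 in the normal dogs. Escaper 2 was the lowest dog and the groups overlapped, and the values of normal 1, 2 and 4 rest on 1 array each. The difference of escapers and affected dogs was −1.14 (SE 0.51, limma adjusted p = 0.8), and −0.52 without affected 1 and escaper 2. BAG2, an inhibitor of the ubiquitin ligase that acts on HSP70 clients, read 0.47, −0.16, −0.39 and 0.14 in the affected dogs, −0.62 and −0.59 in the escapers and −0.41, −0.28, −0.5 and −0.21 in the normal dogs. Lowest of all were the 2 escapers, and their difference from affected dogs was −0.62 (SE 0.23, limma adjusted p = 0.8). BAG1, BAG5 and HSPBP1 were highest in affected 1, at 0.60, 0.93 and 0.16, and the 9 other dogs ranged from −0.90 to 0.30.

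Among the HSP90 cochaperones was the member with the widest range over the dogs. FKBP5, an immunophilin of steroid receptor complexes and a known target of glucocorticoids, read 1.89, −2.39, −1.66 and −3.67 in affected dogs 1 to 4, −2.39 and −3.79 in escapers 1 and 2, and −2.27, −2.35, −3.24 and −2.92 in normal dogs 1 to 4. Affected 1 was the only dog above the reference, and affected 4 and escaper 2 were the lowest. The groups overlapped, and affected less normal dogs came to 1.24 (limma adjusted p = 0.624), with an SD of 2.38 among affected and 0.47 among normal dogs. Without affected 1 it came to 0.12. The labels state no treatment of the dogs. UNC45B, the muscle chaperone that folds the myosin head together with HSP90, read 0.08, −0.17, −0.40 and −0.37 in the affected dogs, −0.13 and −1.04 in the escapers and −0.22, −0.44, −0.38 and −0.17 in the normal dogs. Escaper 2 was the lowest dog, and the groups overlapped. FKBP4, a widely expressed relative of FKBP5, spanned only −0.31 to 0.08.

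The chaperonin CCT folds actin and tubulin, and 4 of its subunits were tested. In affected against normal dogs 3 of 4 were positive with a median of 0.28, and without affected 1 and escaper 2 the median was 0.07. CCT5 read 0.28, −0.52, −0.52 and −0.17 in the affected dogs, −0.60 and −0.51 in the escapers and −0.66, −0.79, −0.53 and −0.82 in the normal dogs. Every affected value exceeded every normal value, in affected 2 and 3 by about 0.01, and the difference was 0.47 (SE 0.19, limma adjusted p = 0.369), or 0.29 without affected 1. At its less bright probe affected and normal dogs overlapped. CCT3 read 0.75, −0.49, −1.21 and −0.66 in the affected dogs, −0.84 and −0.97 in the escapers and −0.73, −1.44, −0.84 and −0.80 in the normal dogs. Affected 1 was the highest dog and normal 2 the lowest, with the groups overlapping. CCT8 and TCP1 ranged from −1.17 to 0.50, affected 1 being the highest dog in both.

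Of the other FKBP immunophilins, FKBP15, which binds actin on endosomes, had the smallest p of all members in affected against normal dogs. It read 0.49, 0.11, −0.04 and 0.01 in affected dogs 1 to 4, −0.20 and 0.27 in escapers 1 and 2, and −0.48, −0.56, −0.55 and −0.43 in normal dogs 1 to 4. The normal dogs lay within 0.13 of one another and below every dystrophic dog. The means were 0.14 ± 0.24 in affected dogs and −0.51 ± 0.06 in normal dogs (SD, n = 4 each), a difference of 0.65 (SE 0.16, limma adjusted p = 0.23), or 1.56-fold higher, and escapers differed from normal dogs by 0.54 (SE 0.19, limma adjusted p = 0.214). Without affected 1 and escaper 2 the value for affected dogs was 0.53 and passed (limma adjusted p = 0.0268), while that of the remaining escaper was 0.31 (adjusted p = 0.607). FKBPL read 0.90, 0.61, 0.21 and 0.32 in the affected dogs, 0.90 and −0.09 in the escapers and −0.08, 0.13, 0.01 and 0.51 in the normal dogs, with the groups overlapping. FKBP1B, the calstabin that binds ryanodine receptors, spanned −1.21 to 0.21 with affected and normal dogs overlapping.

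HSF1, the factor that switches on heat shock genes, read 0.14, 0.16, −0.17 and −0.26 in the affected dogs, −0.03 and −1.26 in the escapers and −0.05, 0.77, 0.14 and 0.96 in the normal dogs. Escaper 2 was the lowest dog, normal 2 and 4 the highest, and the groups overlapped. The values of normal 1 and 2 rest on 1 array each. Escapers differed from normal dogs by −1.10 (SE 0.37, limma adjusted p = 0.205) and from affected dogs by −0.61 (SE 0.37, limma adjusted p = 0.8), and without escaper 2 by −0.48 and 0.01. In escaper 2, where HSF1 was lowest, HSP70 and DNAJB1 were at 1.82 and 2.5, while HSPB7 and CRYAB were at −3.40 and −2.52.

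HSPBAP1 and HSPG2 met the rule by letters only. HSPBAP1, a binding partner of HSPB1, read 0.01, 0.01, 0.15 and −0.04 in the affected dogs, −0.08 and −0.32 in the escapers and 0.41, 0.17, 0.32 and 0.17 in the normal dogs. Both escapers lay below all other dogs and the affected dogs below the normal dogs, with differences of −0.47 (SE 0.15, limma adjusted p = 0.201) for escaper against normal and −0.24 (SE 0.15, limma adjusted p = 0.8) for escaper against affected dogs. HSPG2, the basement membrane proteoglycan perlecan, was well above background on 2 of 8 affected, 2 of 4 escaper and 0 of 8 normal arrays. The log2 differences from normal dogs were 0.14 (SE 0.16, limma adjusted p = 0.732) for affected and 0.23 (SE 0.20, limma adjusted p = 0.554) for escaper dogs, of uncertain size at such dim signals, and the second was 0.02 without escaper 2. The ratios were −0.12, 0.11, 0.20 and 0.35 in the affected dogs, 0.01 and 0.44 in the escapers and −0.29, 0.19, 0.03 and 0.04 in the normal dogs, with the groups overlapping.

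**Figure D4:**
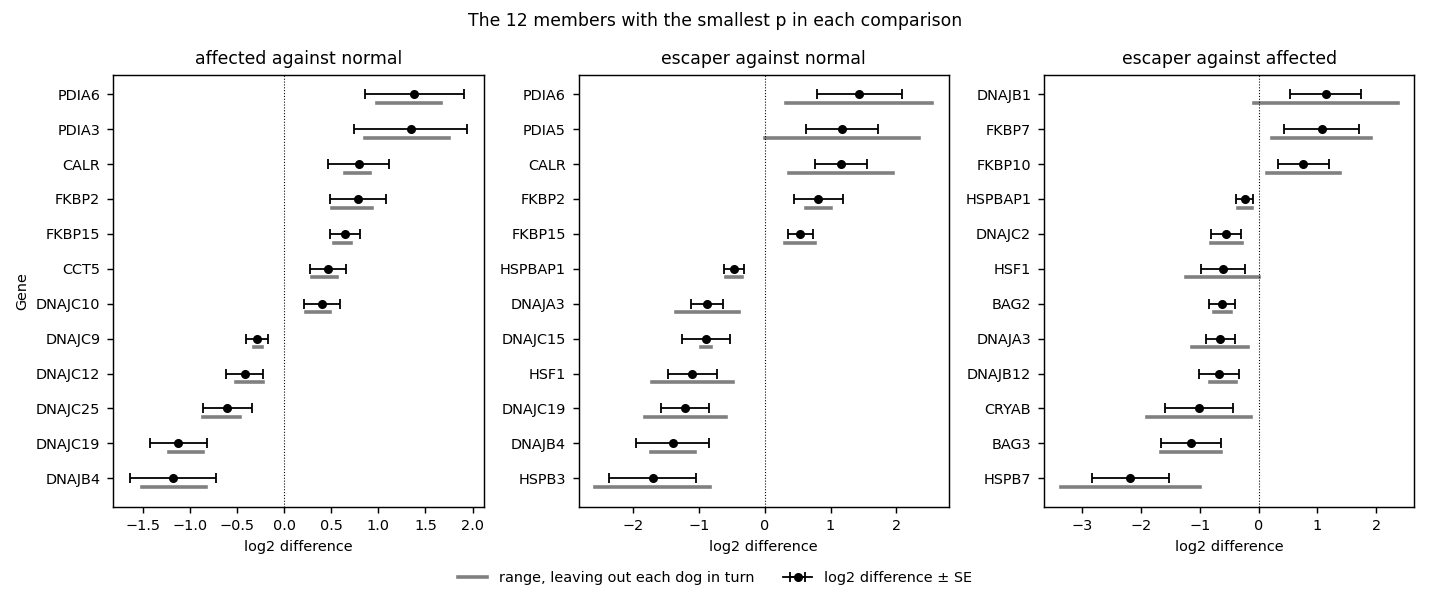
Log2 difference ± SE (horizontal axis) of the 12 members with the smallest p in affected against normal, escaper against normal and escaper against affected dogs; grey bars give the lowest and highest value as each dog is left out in turn. The bar of PDIA5 runs down to 0.01 in escaper against normal dogs, and that of DNAJB1 crosses 0 in escaper against affected dogs.

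The chaperones that carry only locus or transcript names were looked up by their description and are no members. HSPA5, the reticulum HSP70 known as BiP, read 1.57, −0.87, −1.61 and −0.79 in affected dogs, −1.48 and 0.61 in escapers, and −1.49, −1.82, −1.68 and −1.40 in normal dogs. Affected 1 and escaper 2 were the 2 highest dogs, as for the reticulum members, and the differences of affected and escaper from normal dogs were 1.17 (limma adjusted p = 0.487) and 1.16 (0.448). None of the tested probes of HSPA8, HSP90AA1, HSP90AB1, HSPB6, HSPD1 and HSF2 passed either. HSP90AB1 at its brightest probe was above normal 4, the highest normal dog, in 3 of 4 affected dogs and in escaper 1, and 7 arrays were saturated there.

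Other genes of protein folding were looked at by a list that holds no member. Of 54 listed, 28 were on the array and 26 tested, and 0 passed in any comparison by limma. At an unadjusted p under 0.05, 1 was higher and 0 lower in affected against normal dogs, where 5.06% and 7.38% of all probes were. In escaper against normal dogs 2 were higher and 4 lower, where 9.67% and 8.78% of probes were. In escaper against affected dogs 0 were higher and 3 lower, where 2.95% and 2.26% of probes were. The medians of the 26 were 0.10, −0.21 and −0.33. Of 2 enzymes of the reticulum picked after their values were seen, PPIB, a prolyl isomerase that acts on collagen, read 0.13, −0.68, −0.60 and −0.17 in affected dogs 1 to 4, −0.66 and 1.43 in escapers 1 and 2, and −1.07, −1.19, −0.99 and −1.13 in normal dogs 1 to 4, and P4HB, a disulfide isomerase and collagen hydroxylase subunit, read 0.28, −0.42, −0.34 and −0.25 in affected dogs 1 to 4, −0.28 and 0.80 in escapers 1 and 2, and −0.52, −0.78, −0.79 and −0.77 in normal dogs 1 to 4. In both, every dystrophic dog lay above every normal dog and escaper 2 was highest. Over all probes, every affected dog lay above the normal dogs in 5.28%, and both escapers did in 14.5%. MANF and SELS, of the same list, were not so separated. Affected 3 lay at −1.26 and −0.29, within the normal ranges of −1.29 to −0.84 and −0.86 to −0.20.

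The dye-swapped arrays bear on how far single values can be read. Over the members, the Cy5 and Cy3 ratios of a dog correlated at r from 0.66 in escaper 1 to 0.96 in escaper 2, as a description across genes that share arrays. The median gap between both arrays was 0.17 in affected 1, 0.19 in escaper 2, 0.33 in normal 3 and 0.22 to 0.30 in the other 7 dogs. The 2 dogs that stand apart were therefore those whose arrays repeated most closely for the members, and the HSPB3 value of escaper 1 was the point furthest from equality. Of 14 members with more than 1 tested probe, the probes agreed in the sign of the difference in 12 for affected against normal, 13 for escaper against normal and 12 for escaper against affected dogs. The exceptions were DNAJA3 and HSPB8 in the first, CCT5 in the second, and FKBP2 and PDIA6 in the third.

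**Figure D5:**
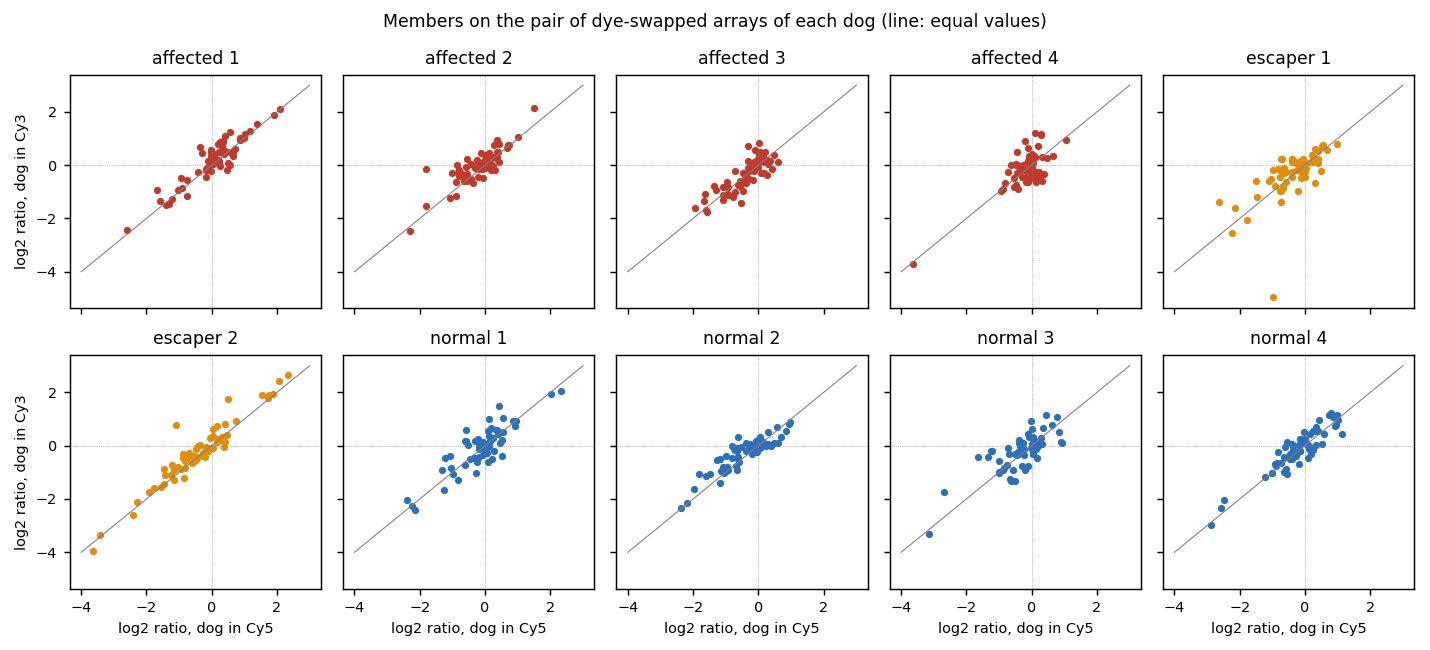
Log2 ratio of each member with the dog in Cy5 (horizontal axis) against that with the dog in Cy3 (vertical axis), a panel for each dog and a point for each member; the line marks equal values. Points of escaper 2 and affected 1 lie closest to the line by the median gap, those of escaper 2 over the widest range, and 1 point of escaper 1, HSPB3, lies at −0.97 and −4.96.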

How the data were processed

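Agilent arrays of 2 colours compared muscle RNA of 10 dogs with the RNA of 1 normal individual. Per the file headers, the authors extracted the spot intensities with version 9.5.3.1 of Agilent's Feature Extraction, and the deposited mean and background signals are used here. The deposited value table holds log2 ratios of the authors' processed signals of dog over reference, as a comparison with the scanner files showed (r = 1 on every array). It is not centred, with column medians from −0.16 to 0.25, and served only as an alternative. All of its 20 columns belong to these samples (0 columns were left unused).

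The background was corrected with normexp (offset 50), ratios were normalized by loess within each array with weight 0 for the 1417 control spots, turned to dog over reference and averaged over the 2 dye-swapped arrays of a dog. Outlier spots were masked and saturated spots kept. Tested were 16008 of 42034 probes, those measured in every dog that at least 2 dogs showed well above background on each of their arrays, judged in the channel holding the dog's RNA. A single limma 3.58.1 fit (R 4.3.3) of 3 groups gave log2 differences, with Benjamini-Hochberg adjustment over all tested probes and a threshold of 0.05. The probe with the highest mean log2 intensity stood for a gene. Each dog is a separate animal per the labels, so p-values measure the spread between dogs, and their number limits the precision.

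The members and lists were chosen with earlier results of these data known. Values in every dog are given for the 12 members with the smallest p in each comparison, the 2 with the smallest p in each role and a list of well-known chaperones, and a member named outside this rule is said to have been chosen after its values were seen or is given by its range. Alternatives were median centring, the value table, no background correction, other filters on dim probes, dog or slide as a random block, another variance model, single dyes, affected and normal dogs alone, probes averaged per gene, each dog left out, and, chosen after seeing the data, affected 1 and escaper 2 left out together. The search for heat shock motifs in promoters was not run, as no promoter sequences were used here. The fit was tested on simulated data.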

Additional observations from a re-analysis of the deposited data

Results flagged for a closer look

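Among 82 groups of 4 dogs, those of 41 members with values in every dog, 8 (9.76%) held 1 dog far from the other 3. Its gap to the nearest dog over the whole range exceeded Dixon's critical value, where chance gives about 1 in 20. The members share dogs and were partly picked by their p, so the groups are not independent. The same share over all probes was not computed, so no excess among the members is read from this count. Groups of 2 escapers cannot be tested in this way. In affected dogs DNAJB12 stood at 1.0 in affected 1, with the next dog at −0.06, and DNAJC19 stood at −0.98 in affected 1, with the next at −0.01. HSPB7 stood at −1.36 in affected 3, with the next affected dog at 0.24. In normal dogs DNAJC25 stood at 0.05 and CALR at −1.46 in normal 1, with the next dogs at −0.18 and −1.04. CCT3 stood at −1.44 and FKBP10 at −0.14 in normal 2, with the next at −0.84 and −0.37. DNAJC10 stood at −0.75 in normal 4, with the next at −0.10.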

How the results depend on the processing

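With 4, 2 and 4 dogs, 1 dog can decide a result here. Where an escaper is left out, a single dog stands for that group. Calls against escapers then rest on the spread of the other groups and say nothing on that among escapers. Direction and side of the threshold were counted for the 12 members with the smallest p in each comparison, 36 differences under 23 settings. Of the single results 768 kept both, 20 came to pass the threshold and 5 turned. Under several settings the direction could not turn, because the size of a difference stays the same. These include the other variance model, the filters on dim probes, the slide block and leaving out a dog of the third group. The 36 differences were also picked by their p, so the count of 768 does not measure how robust they are. Other named members were left out of the count, and some of them turned in other comparisons. In escaper against normal dogs DNAJB6 was 1.1 with all dogs and −0.208 without escaper 2. HSPH1 ran there from −1.495 without escaper 2 to 0.673 without escaper 1. The probes called in affected against normal dogs numbered 3, and 31 with the deposited value table, 19 without background correction, 362 with a random block for the dog and 114 with one for the slide (consensus correlations 0.542 and −0.271), 7 with Cy5 and 1 with Cy3 arrays, 113 with affected and normal dogs alone, 0 to 113 as each dog was left out (0 without normal 2, affected 2 or affected 4, 22 without affected 1, 113 without either escaper) and 899 without affected 1 and escaper 2. In escaper against normal dogs 0 probes became 4 with the value table, 1 without the filter on dim probes, 1067 and 522 with the 2 blocks, 0 to 3920 with a dog left out (3920 without escaper 1, 9 without affected 1, 1 without escaper 2) and 20 without both dogs. In escaper against affected dogs 0 became 0 to 1755 with a dog left out (1755 without escaper 1, 2 without escaper 2) and 12 without both. Of the members, affected against normal called 1 with the dog block (DNAJC19, where 2.26% of probes were called) and 3 without both dogs (DNAJC19, DNAJC25 and FKBP15, where 5.62% were). Escaper against normal called 4 with the dog block (DNAJA3, DNAJC19 and HSF1 lower, CALR higher; 6.67%), 1 with the slide block (DNAJA3; 3.26%) and 0 to 17 with a dog left out, the 17 without escaper 1 (7 higher and 10 lower; 24.5%). Escaper against affected called 0 to 6, the 6 without escaper 1 (DNAJA3, UNC45B and HSPB7 lower, DNAJB1, DNAJB6 and PDIA5 higher; 11%). The median of the members in escaper against normal dogs, −0.148, was −0.374 with median centring and −0.301 with the value table. In escaper against affected dogs, −0.224, it was −0.422 with median centring, −0.312 to −0.069 with a dog left out (without escaper 1 and without affected 1) and −0.071 without both. Among the 36 counted differences, those that turned were all in escaper against affected dogs. DNAJB1 ran from −0.086 to 2.361 with a dog left out and was −0.156 without both, HSF1 ran from −1.229 to 0.005 and was 0.062, and FKBP7 was −0.254 without both. DNAJB1 and HSF1 turned as escaper 2 alone was left out, while FKBP7 turned only as affected 1 was left out with it, and the cause of the other changes was not tested. No paired analysis was possible because each dog belongs to a single group and the labels match no dogs across groups.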
